A study of Mus musculus with 57 samples.

Results

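The SOX genes followed here are 9 transcription factors of neural progenitors and glia: the SoxC genes Sox4, Sox11 and Sox12, the SoxB1 gene Sox2, the SoxB2 gene Sox21, the SoxE genes Sox9 and Sox8, and the SoxD genes Sox5 and Sox6. They were picked by name, and each was found once, so 9 of the 21118 genes of the count table were members. The values are gene counts from translating ribosome affinity purification (TRAP), in which ribosomes carrying a tag are pulled out of a tissue homogenate together with the messages they were translating. The tissue was whole cerebral cortex of C57BL/6 mice with the genotype Aldh1l1-L10-GFP, in which the ribosomal protein L10 joined to green fluorescent protein is made under the control of Aldh1l1, a folate enzyme gene used as an astrocyte marker; every animal carried the transgene, so there was no untagged group, and cells outside the astroglia that use Aldh1l1 would be tagged too. The 53 libraries, 1 per labelled animal, came from females and males with 4 and 4 at P1 (postnatal day 1), 4 and 4 at P4, 8 and 4 at P7, 5 and 5 at P14, 3 and 3 at P35, and 4 and 5 in adults, whose age in days the labels do not give. The mice were group housed with littermates, the labels name no treatment, and they do not say that animals were pooled.

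SOX proteins bind the minor groove of DNA through a high mobility group domain and bend it, usually beside a partner factor that decides which genes they act on. Sox2 keeps neural progenitors undifferentiated and stays on in astrocytes, Sox9 starts gliogenesis and marks astrocyte nuclei in the adult cortex, and Sox8 is a SoxE relative that works beside Sox9 and Sox10 in glia. The SoxC genes act in committed neuronal progenitors and immature neurons, Sox21 counters SoxB1 proteins, and the SoxD proteins have no activation domain of their own and modulate other SOX proteins. The series asks how the astroglial translatome develops in females and males, and the question here is how the SoxC genes behave over the 6 ages beside the other SOX genes.

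Before the values, the proximal promoters of the 3 SoxC genes and of Sox2 are shown, since the SoxC genes moved together and apart from Sox2 below. Each window holds 200 bases, from 250 to 51 bases before the RefSeq start (GRCm38.p6), 5′ to 3′ on the gene's strand, with CCAAT boxes (CCAAT, or ATTGG for the other strand) in capitals. The windows lie at chr13:28953750-28953949 (minus strand) for Sox4, chr12:27342769-27342968 (minus) for Sox11, chr2:152398097-152398296 (minus) for Sox12 and chr3:34649745-34649944 (plus) for Sox2.
Sox4: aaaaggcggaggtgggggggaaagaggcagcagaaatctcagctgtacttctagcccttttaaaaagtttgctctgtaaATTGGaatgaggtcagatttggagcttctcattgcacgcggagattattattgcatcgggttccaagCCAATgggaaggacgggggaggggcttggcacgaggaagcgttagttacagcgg
Sox11: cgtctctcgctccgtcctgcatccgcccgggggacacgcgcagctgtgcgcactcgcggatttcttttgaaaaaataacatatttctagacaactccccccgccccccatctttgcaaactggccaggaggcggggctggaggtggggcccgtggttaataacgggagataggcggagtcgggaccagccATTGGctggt
Sox12: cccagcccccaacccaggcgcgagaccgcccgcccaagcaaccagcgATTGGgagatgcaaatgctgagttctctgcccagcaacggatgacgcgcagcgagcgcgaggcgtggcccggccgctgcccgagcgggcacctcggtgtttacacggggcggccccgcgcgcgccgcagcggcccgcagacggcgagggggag
Sox2: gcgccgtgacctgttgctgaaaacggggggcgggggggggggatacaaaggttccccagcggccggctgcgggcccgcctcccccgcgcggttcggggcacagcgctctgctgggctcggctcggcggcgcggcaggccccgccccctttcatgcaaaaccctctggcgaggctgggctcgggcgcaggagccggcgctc
The Sox4 window held 2 CCAAT boxes, and the Sox11 and Sox12 windows held 1 each. None stood in the windows of Sox2, Sox21, Sox8 or Sox5, while 2 of the 6 windows listed for Sox6 held CCAAT boxes. Of 32851 RefSeq windows of this length and place, 28.4% held at least 1. A GC box (GGGCGG, or CCGCCC for the other strand) stood in the windows of Sox11, Sox12, Sox2 and Sox8 and in 1 of the 6 for Sox6, and in 24.6% of all windows. The letters AACAAT (or ATTGTT), the core of many SOX binding sites, stood in 1 of the 6 Sox6 windows and in no other member's, against 7.96% of all windows. The Sox4 window had 50.5% G and C and the Sox2 window 76% (median of all windows 51.5%). RefSeq windows matched 8 of the 9 members, with Sox9 not among them. An RBPJ site (TGGGAA, or TTCCCA) stood in the Sox4 window alone (17.9% of all windows), and a TATA box (TATAAA, or TTTATA) in 1 of the 6 for Sox6 (9.14%). For Sox2 and Sox11 the RefSeq start lies upstream of the gene start in the GENCODE M21 annotation (34650405 and 27342574). The Sox5 window (chr6:143947157-143947356, minus strand) lies far inside the gene, whose start in that annotation is at 144781977. It therefore does not describe the promoter at the Sox5 gene start. The windows to print and the motif put in capitals were picked with the changes below known. These matches describe the letters only, no binding was measured, and a tie between a motif and the changes with age was not tested.

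Libraries held between 14768178 and 48541139 counts, with a median of 24033399, and every member had at least 3 counts in every library. The lowest counts were 3 for Sox21 and 9 for Sox6, both in the library P1 female 4, where both genes were close to absent. Libraries fall into 6 replicate sets by the first digit of the replicate number in their labels (sets 1, 2, 3, 4 and 6, with 10, 8, 12, 11 and 8 libraries) and a set S of 4 libraries at P7 from a second sequencing run alone; the labels do not say what a set shares. Summed levels of cell type markers differed between sets. The sum of 25 mature astrocyte markers had a median of 17303.5 CPM (CPM being counts per 1000000 on scaled library sizes) in set 1 and of 2772.5 in set 6, and the sum of 20 mature neuron markers had medians of 1947 and 8271 CPM. Aldh1l1 itself had a median of 266 unscaled CPM in set 1, 171 in set 2, 126 in set 3, 180.1 in set 4, 58.8 in set 6 and 144 in set S. With a cut at 1 unscaled CPM of summed Y-linked genes, counts went against the labelled sex in 11 libraries, 7 labelled female and 4 labelled male. Of these females, P7 female 40, P7 female 10, adult female 2, adult female 3 and P7 female 30 had 1.90, 3.84, 5.67, 7.96 and 17.7 CPM. P4 female 2 and P7 female S2 had 60.8 and 194 CPM, where labelled males at or above the cut had 17.2 to 223. Xist, a transcript of female cells, was at 0 CPM in P4 female 2 and P7 female S2. The labelled males P35 male 10, P4 male 4, adult male 60 and P7 male S2 had 0.17, 0.50, 0.09 and 0 Y-linked CPM. Their Xist was at 43.2, 10.6, 3.33 and 20.7 unscaled CPM. In these males and in P4 female 2 and P7 female S2, both measures thus went against the label. The low Y-linked values of the other labelled females do not settle the sex of an animal. Sex is given below as labelled throughout. The library labelled P1 female 4 detected 10085 genes with 10 or more counts (median 16873) and had 8.88 unscaled CPM of Aldh1l1 where the other P1 libraries had 34.2 to 377. P1 female 1 had the lowest Sox4 and Sox11 of its age, and P14 male 6 had the highest SoxC levels of its age.

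The SoxC genes fell steeply from P1 to the adult, and every adult library lay below every P1 library for all 3. Sox9 and Sox2 rose moderately, Sox8 rose slightly, and Sox21, Sox5 and Sox6 did not pass the test. In all, 6 of the 9 members changed from P1 to adult, 3 up and 3 down, where 41.3% of all 21118 genes changed (21.8% higher and 19.5% lower). The median log2 change was -3.51 for the SoxC genes and 0.51 for the other 6 members, beside 0.06 for all genes. Tests are edgeR's quasi-likelihood F test with Benjamini-Hochberg adjustment over all genes, a threshold of 0.05, and the replicate set in the model; log2 changes are the mean of the sexes, with their standard error (SE). In TRAP of whole cortex, fewer cells that use a gene and less message per cell cannot be told apart.

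**Figure D1:**
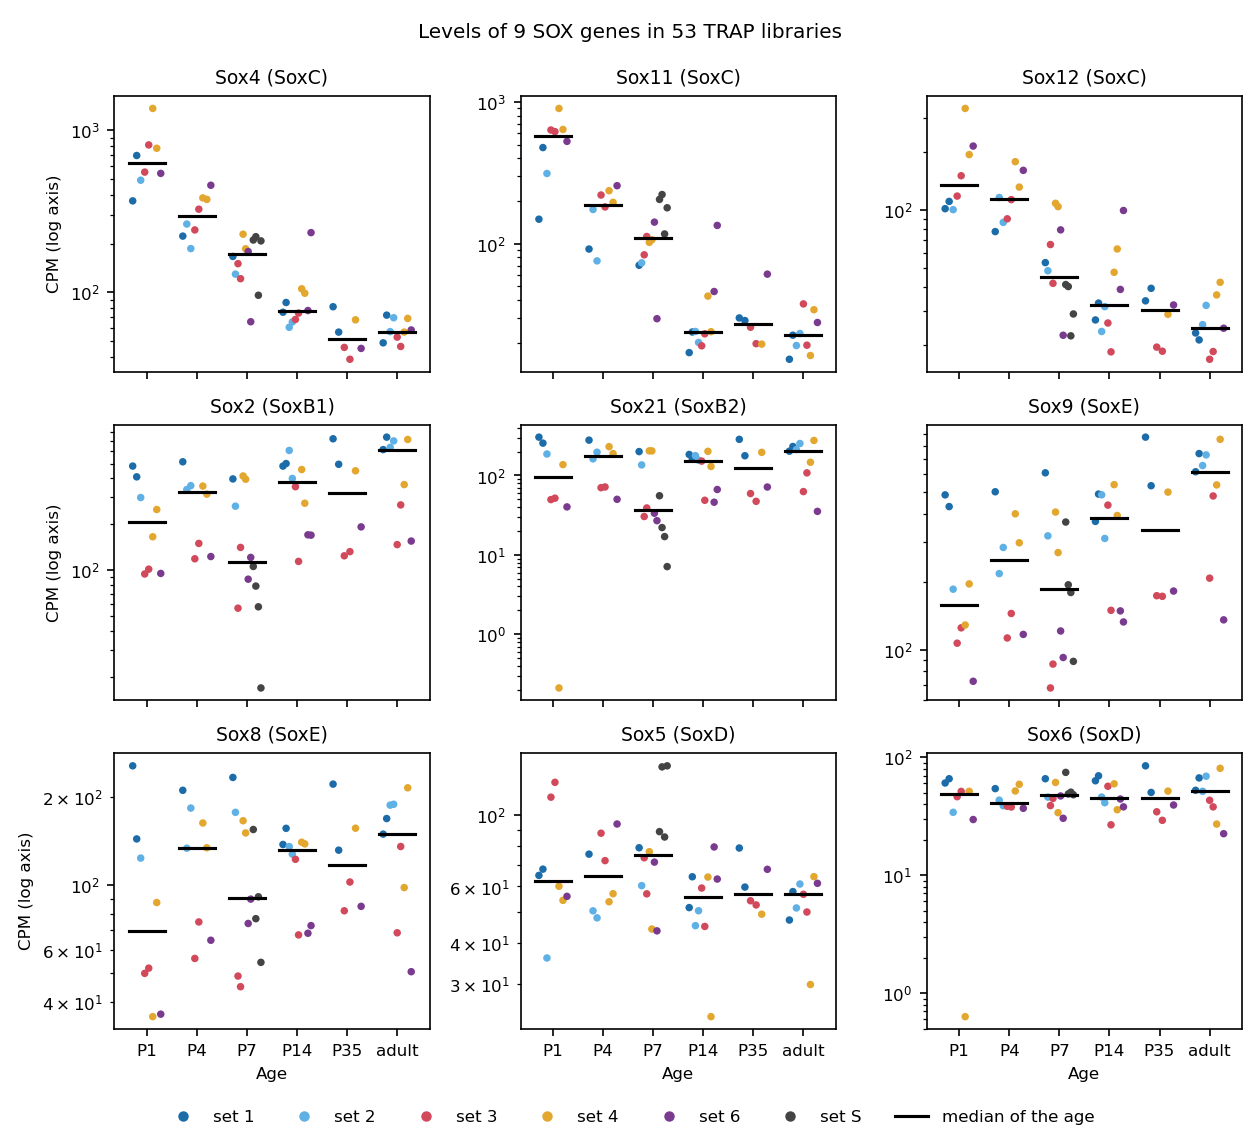
Level of each SOX gene (CPM, log axis) in each of the 53 libraries by age, coloured by replicate set, with the median of each age as a black bar. The SoxC genes are lower at P14 than at P1 in every set sampled at both ages, though not every step between goes down in every set. Within an age most libraries of sets 3, 6 and S lie low for Sox2, Sox21, Sox9 and Sox8.

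Sox4 (Ensembl identifier ENSMUSG00000076431, GRCm38 chr13:28948919-28953713, minus strand), a SoxC activator that stabilises the immature neuronal state, had a lowest, median and highest level of 367, 626 and 1365 CPM in the 8 P1 libraries, and of 46.4, 57.3 and 72.4 CPM in the 9 adult libraries. The lowest P1 library thus stood well above the highest adult one. Its log2 change was -3.51 ± 0.22 (SE), an 11.4-fold fall (adjusted p = 1.80e-15). The age medians were 626, 295, 173, 76.3, 51.3 and 57.3 CPM from P1 to adult. Sox4 thus had its low level by P35. Its exons overlap those of the antisense gene Gm26735, and the strand setting of the counting is not given in the sources used here, so its counts may hold reads of that gene.

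Sox11 (ENSMUSG00000063632, chr12:27334264-27342574, minus strand), which acts beside Sox4 in neuronal commitment and axon growth, had a lowest, median and highest level of 149, 572 and 898 CPM at P1, and of 15.3, 22.6 and 37.6 CPM in adults. No P1 and adult library overlapped, though P1 female 1 (148.8 CPM) stood well below the other P1 libraries, which began at 313 CPM. The log2 change of -4.39 ± 0.31, a 20.9-fold fall (adjusted p = 2.66e-14), was larger in size than that of any other member. The age medians were 572, 189, 109, 23.9, 27.2 and 22.6 CPM, so the low level was reached at P14. There the libraries ran from 17.1 to 135 CPM, with P14 male 6 at the top and the next library at 46.0.

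Sox12 (ENSMUSG00000051817, chr2:152393611-152398063, minus strand), the weakest activator of the 3 SoxC proteins, had a lowest, median and highest level of 101, 135 and 337 CPM at P1, and of 16.9, 24.5 and 42.3 CPM in adults. Again no P1 and adult library overlapped. It fell by 2.58 ± 0.20 on the log2 scale, a 5.98-fold fall (adjusted p = 2.64e-13). Over all genes, 6.26% had P1 and adult libraries that did not overlap, and 2.69% did so with adults lower, whereas all 3 SoxC genes did. The 3 falls kept their call under every alternative run, with the replicate set out of the model and with each P1 or adult library left out.

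Sox2 (ENSMUSG00000074637, chr3:34650405-34652461, plus strand), the SoxB1 factor of neural stem cells, had a lowest, median and highest level of 94.6, 208 and 481 CPM at P1, and of 147, 617 and 745 CPM in adults. The 2 ages overlapped, with 5 of the 9 adult libraries above the highest P1 library. The log2 change was 0.97 ± 0.21, a 1.96-fold rise (adjusted p = 2.95e-04). With no replicate block the change was 1.02 and the call was lost (adjusted p = 0.107). Sox2 lies inside the span of Sox2ot, with no exon shared.

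Sox9 (ENSMUSG00000000567, chr11:112782224-112787760, plus strand), the SoxE factor of gliogenesis, had a lowest, median and highest level of 72.4, 157 and 485 CPM at P1, and of 135, 614 and 856 CPM in adults. The 2 ages overlapped, with 6 of the 9 adult libraries above the highest P1 library. Its log2 change was 1.39 ± 0.24, a 2.62-fold rise (adjusted p = 1.07e-05), and the call held with no replicate block (adjusted p = 0.0207). Its age medians were 157, 250.4, 186, 382, 340.5 and 614 CPM.

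Sox8 (ENSMUSG00000024176, chr17:25565892-25570686, minus strand), a SoxE gene of glial progenitors and oligodendrocytes, had a lowest, median and highest level of 35.6, 69.6 and 255 CPM at P1, and of 50.6, 149 and 215 CPM in adults. All adult libraries lay inside the P1 range. The log2 change of 0.58 ± 0.23, a 1.49-fold rise, only just passed the test (adjusted p = 0.0414). The call was lost with no replicate block (adjusted p = 0.330), without the 3 libraries with the fewest genes detected (0.151), without the 11 libraries whose Y-linked counts go against the label (0.104) and in 12 of the 17 fits that left out 1 P1 or adult library (log2 change 0.41 to 0.85). Its exons overlap an antisense gene, so its counts are uncertain in the same way as those of Sox4.

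Sox21 (ENSMUSG00000061517, chr14:118233232-118237030, minus strand) had a lowest, median and highest level of 0.211, 94.4 and 304 CPM at P1, and of 35.3, 202 and 276 CPM in adults, and its log2 change was 0.44 ± 0.41 (adjusted p = 0.406). The low end at P1 was the library P1 female 4, with 3 counts. Without P1 female 1, P1 female 4 and P14 male 6 the log2 change was 0.31 (adjusted p = 0.351). Sox21 also overlaps an antisense gene, Gm4675. Sox5 (ENSMUSG00000041540, chr6:143828425-144781977, minus strand), a SoxD gene of deep-layer cortical neurons and glial progenitors, had a lowest, median and highest level of 36.1, 62.5 and 126 CPM at P1, and of 29.8, 56.8 and 64.4 CPM in adults. Its log2 change was -0.40 ± 0.19 (adjusted p = 0.0878), and its exons overlap the antisense gene Sox5os1. Sox5 was called lower without P1 male 2 (-0.52, adjusted p = 0.0279), without P1 female 6 (-0.48, adjusted p = 0.0486) and without the 3 libraries with the fewest genes detected (-0.43, adjusted p = 0.0487). Sox6 (ENSMUSG00000051910, chr7:115470872-116038796, minus strand), a SoxD gene that also serves cortical interneurons, had a lowest, median and highest level of 0.633, 48.8 and 65.7 CPM at P1, and of 22.5, 51.4 and 80.6 CPM in adults. Its log2 change was 0.24 ± 0.31 (adjusted p = 0.564), with a 95% interval from -0.39 to 0.88, so a change of the size of the Sox9 rise lies outside that interval. For all 3 genes the 2 ages overlapped.

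As a single test over the 6 ages, 5 members changed (Sox4, Sox11, Sox12, Sox2 and Sox9), where 43.5% of all genes did. Sox8, Sox21, Sox5 and Sox6 did not pass it (adjusted p = 0.221, 0.618, 0.290 and 0.985).

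Step by step, the SoxC falls that passed the test came at the steps up to P14. From P1 to P4, Sox11 fell by 1.62 ± 0.29 and Sox4 by 1.17 ± 0.21 on the log2 scale (adjusted p = 0.00405 and 0.00492). These were the 2 members that changed at a step where 0.44% of genes changed (0.242% higher and 0.199% lower). Sox12 had a log2 change of -0.45 (adjusted p = 0.341). Sox2, Sox21, Sox9, Sox8, Sox5 and Sox6 had log2 changes of 0.36, 0.44, 0.41, 0.49, -0.06 and 0.20 in turn, none of which passed the test. With no replicate block neither call held (adjusted p = 0.439 for Sox11 and 0.264 for Sox4), at log2 changes of -1.61 and -1.20.

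From P4 to P7 all 3 SoxC genes fell, by a similar amount, and no other member changed, where 1.67% of genes changed (1.25% higher and 0.417% lower). The log2 changes were -1.20 ± 0.22 for Sox4 (adjusted p = 0.00301), -1.21 ± 0.30 for Sox11 (adjusted p = 0.0247) and -1.19 ± 0.21 for Sox12 (adjusted p = 0.00154). Set S holds P7 libraries only and has its own term in the model. Its 4 libraries therefore bear on the P7 level in these steps only through the difference between the labelled sexes. Of these libraries, P7 female S2 and P7 male S2 had Y-linked counts against their label. Outside set S the labelled males at P7 were P7 male 2 and P7 male 6, both among the animals sequenced in 2 runs. The library labelled P7 male 6 had the lowest Sox4 (65.9 CPM) and Sox11 (29.6 CPM) of the 12 P7 libraries, which otherwise began at 96.0 and 70.4 CPM. Without it Sox12 alone kept its call (adjusted p for Sox4 = 0.0532 and for Sox11 = 0.221), and the Sox11 call was also lost without P4 female 2 (adjusted p = 0.0550), P4 male 4 (adjusted p = 0.0561) or the 5 libraries that carry the other sex's letter in their description (adjusted p = 0.0655), and with sex left out of the model (adjusted p = 0.0617). Sox2, Sox21, Sox9, Sox8, Sox5 and Sox6 had log2 changes of -0.30, -0.70, -0.13, 0.06, -0.14 and -0.01. With no replicate block Sox12 alone was called too, and without the 11 libraries whose Y-linked counts go against the label none was, at log2 changes of -1.20, -1.27 and -1.20.

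From P7 to P14 Sox11 fell by 1.19 ± 0.28 on the log2 scale (adjusted p = 0.0122), where 3.3% of genes changed (1.65% higher and 1.65% lower). Sox4 and Sox12 had log2 changes of -0.54 and -0.44 (adjusted p = 0.148 and 0.218). The single library P14 male 6 weighed on both: without it Sox4 fell by 0.76 (adjusted p = 0.0086) and Sox12 by 0.63 (adjusted p = 0.025). Without P7 male 6 both were called too, at -0.74 and -0.68 (adjusted p = 0.0304 and 0.0253), together with Sox2 at 0.87 (adjusted p = 0.0191). Conversely, without P7 male 2 the Sox11 call was lost (log2 change -0.77, adjusted p = 0.291), as it was without the 11 libraries against their label (-1.12, adjusted p = 0.1003) and without the 5 with the other sex's letter (-1.11, adjusted p = 0.0767). The changes of Sox21, Sox9, Sox8, Sox5 and Sox6 were 0.62, 0.64, -0.07, -0.18 and 0.05 and did not pass. Sox2 had a log2 change of 0.67 ± 0.22 (adjusted p = 0.0727), which passed the test with DESeq2 in place of edgeR (0.73, adjusted p = 0.0204).

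From P14 to P35 edgeR called 0 members, with 1 at an unadjusted p under 0.05 (Sox4, log2 change -0.70 ± 0.23, adjusted p = 0.117), where 1.15% of genes changed. Without the 3 libraries with the fewest genes detected Sox4 was called lower (-0.75, adjusted p = 0.0326). The other 8 members ranged from -0.30 for Sox12 to 0.18 for Sox8. From P35 to adult it called 0 members, 0 of them at an unadjusted p under 0.05, and 0% of all genes (884 genes at an unadjusted p under 0.05). DESeq2 and limma voom called 0 members at both steps. At this last step the log2 changes ran from -0.28 for Sox11 to 0.41 for Sox9. The 95% interval ran from -0.37 to 0.55 for Sox4 and from -0.12 to 0.94 for Sox9.

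**Figure D2:**
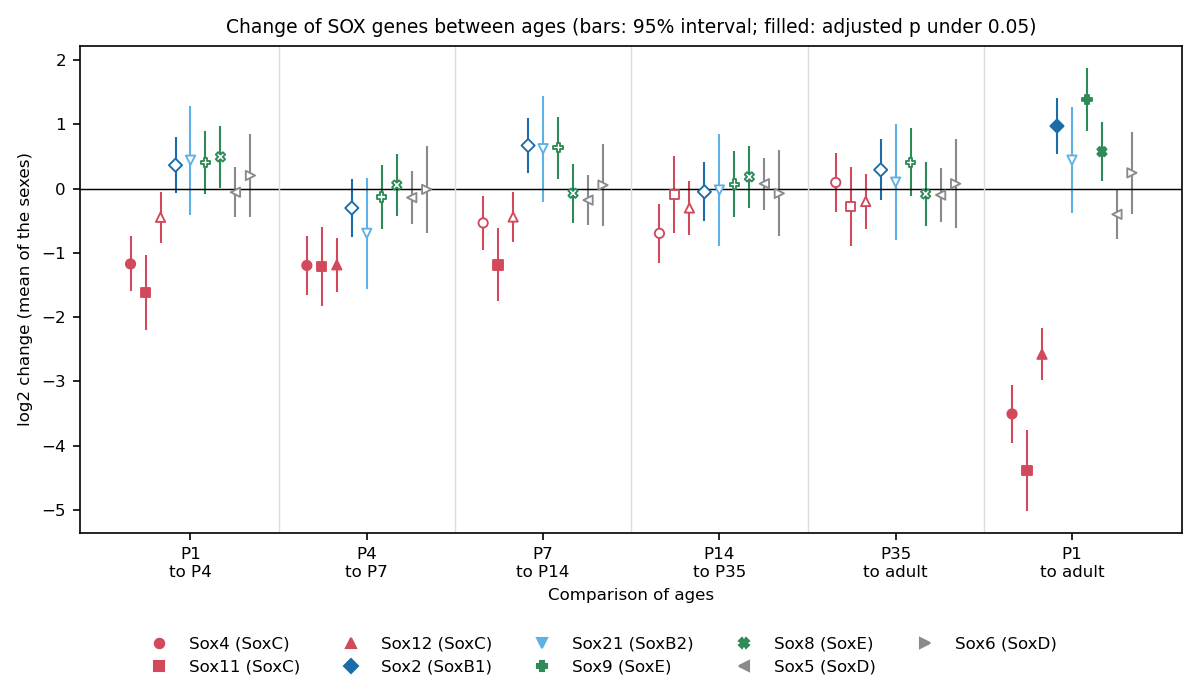
Log2 change of each SOX gene (y axis) at each step between neighbouring ages and from P1 to adult (x axis), with the 95% interval as a bar and filled symbols for an adjusted p under 0.05. Below 0, Sox4 and Sox11 are filled from P1 to P4, all 3 SoxC genes from P4 to P7 and Sox11 alone from P7 to P14, and only the span from P1 to adult has filled symbols above 0 (Sox2, Sox9 and Sox8).

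Levels per kilobase of exon give a rough scale on which different genes can be set side by side. On this scale Sox4 had the highest median at P1 (130.5 CPM per kb, range 76.5 to 285), then Sox2 (101), Sox11 (68.8), Sox9 (37.9), Sox12 (30.2), Sox21 (24.9), Sox8 (22.3), Sox5 (4.35) and Sox6 (3.29). Neighbours in this order overlapped over libraries throughout, apart from Sox8 above Sox5. In adults the order was Sox2 (299.9 CPM per kb, range 71.6 to 362), Sox9 (149), Sox21 (53.3), Sox8 (47.9), Sox4 (11.9), Sox12 (5.49), Sox5 (3.95), Sox6 (3.47) and Sox11 (2.72). In adults Sox4 (9.67 to 15.1) overlapped neither Sox8 above it (16.2 to 68.9) nor Sox12 below it (3.79 to 9.50), and the other neighbours overlapped. Sox11 thus went from the third place to the last. The divisor merges all annotated exons of a gene, 14.4 kb for Sox5 and 14.8 kb for Sox6 beside 2.06 kb for Sox2. The place of a gene with several transcripts therefore depends in part on the divisor.

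The 3 SoxC genes together, set against Sox2 and Sox9 together on the per kb scale, had a median log2 ratio of 1.17 at P1 (lowest -1.58, highest 2.07). The median was -0.82 at P4, -0.88 at P7, -3.38 at P14 and -3.37 at P35. In adults it was -4.31 (lowest -4.70, highest -2.36), so every adult library lay below every P1 library. At P1 the libraries of sets 1 and 2 lay below 0 and those of sets 3, 4 and 6 above it, and at P4, P14, P35 and in adults the highest library belonged to set 6.

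**Figure D3:**
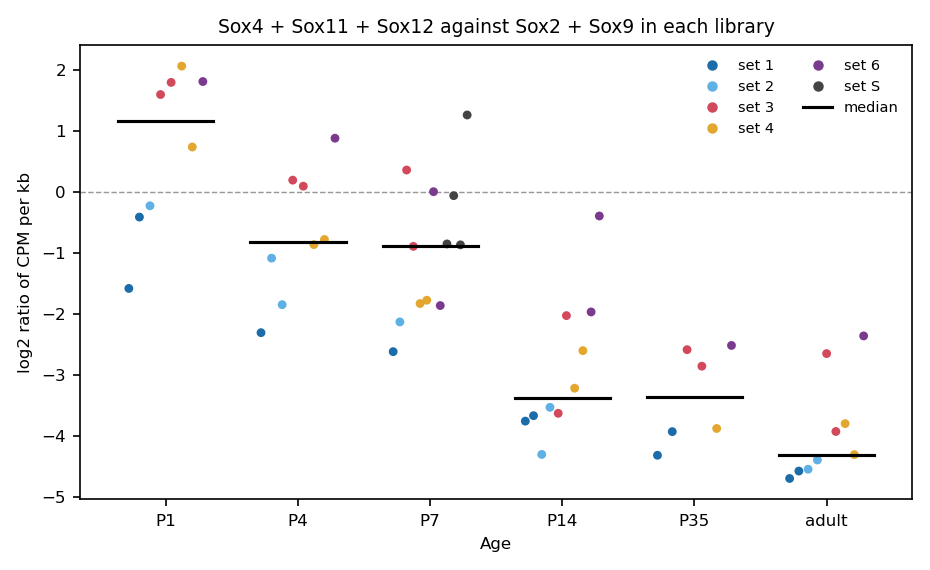
Log2 ratio (y axis) of the summed CPM per kb of Sox4, Sox11 and Sox12 to that of Sox2 and Sox9 in each library, by age (x axis) and coloured by replicate set, with the median of each age as a black bar. Medians go from 1.17 at P1 to -4.31 in adults, and the lowest library of every age belongs to set 1 or 2.

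The SoxC genes varied mainly with age, and Sox2, Sox9 and Sox8 mainly with the replicate set. Of the variation in log2 CPM over the 53 libraries, age taken first accounted for 87.8% in Sox4, 83.4% in Sox11 and 72.5% in Sox12, and the set taken after age and sex for 2.91%, 6.05% and 13.7%. For Sox2 age accounted for 27.0% and the set for 58.4%. For Sox9 the shares were 25.7% and 54.6%, and for Sox8 9.61% and 58.1%. Sox21 (15.1% and 30.8%), Sox5 (18.5% and 31.0%) and Sox6 (8.33% and 12.9%) left more in the residual. The sets are not spread evenly over the ages, so the shares depend on the order. With the set taken first, age accounted for 86.3% in Sox4, 80.2% in Sox11 and 70.1% in Sox12. In that order age accounted for 8.32% in Sox2, 20.1% in Sox9, 9.74% in Sox8, 7.45% in Sox21, 9.10% in Sox5 and 8.39% in Sox6. Between the sets, 8 of 9 members differed (Sox6 had an adjusted p of 0.150), where 69.1% of all genes did.

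Against set 1, the libraries of set 3 had lower Sox2 (log2 difference -1.90 ± 0.19, adjusted p = 1.25e-10), Sox21 (-1.93), Sox9 (-1.74), Sox8 (-1.35) and Sox6 (-0.68), where 53% of genes differed. Set 6 had lower Sox21 (-2.30), Sox9 (-2.16 ± 0.26, adjusted p = 1.67e-08), Sox2 (-1.87), Sox8 (-1.52) and Sox6 (-0.85), and higher Sox11 (1.21) and Sox12 (0.64), where 34.3% of genes differed. Set S, which holds P7 libraries only, had lower Sox21 (-2.87), Sox2 (-2.66), Sox8 (-1.08) and Sox9 (-1.07), and higher Sox11 (1.79) and Sox5 (0.79), where 32.6% differed. Sox2, Sox21, Sox9 and Sox8 were thus lower in all 3 sets, and Sox11 was higher in 2 of them. In set 4 Sox12 alone differed (0.88, 17.9% of genes), and in set 2 no member and no gene did (edgeR, 1126 genes and 1 member at an unadjusted p under 0.05).

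**Figure D4:**
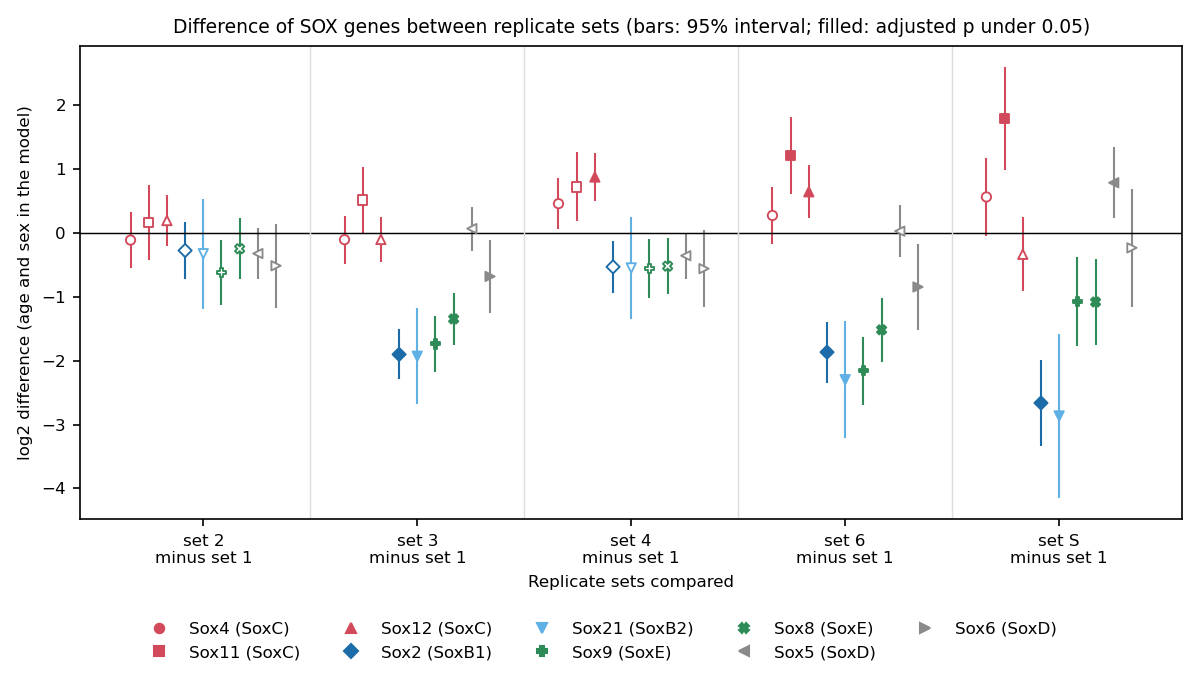
Log2 difference of each SOX gene (y axis) between each replicate set and set 1 (x axis), with age and sex in the model, the 95% interval as a bar and filled symbols for an adjusted p under 0.05. Sox2, Sox21, Sox9 and Sox8 are filled below 0 in sets 3, 6 and S, and Sox11 is filled above 0 in sets 6 and S.

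Markers of cell types moved between the same sets. Of 25 mature astrocyte markers 24 were lower in set 3 than in set 1, 25 in set 6 and 23 in set S (median log2 differences -1.72, -2.73 and -2.06). Of 22 radial glia and progenitor markers 15, 20 and 13 were lower and 0 higher. Of 20 mature neuron markers 20, 18 and 14 were higher and 0 lower, and of 24 immature neuron markers 14, 14 and 14 were higher while 3, 1 and 2 were lower. Over all genes the median difference was 0.11, 0.06 and -0.19. The part these markers play in the SOX values of those sets was not tested.

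Of the 12 P7 libraries 8 belong to sets 3, 6 and S, and the P7 median of Sox2 was 114 CPM beside 327 at P4 and 376 at P14. With the set in the model the log2 change of Sox2 from P4 to P7 was -0.30 ± 0.22 (adjusted p = 0.633). Within single sets the P1 to adult changes had one direction for the SoxC genes: the difference of mean log2 CPM was negative in 5 of 5 sets for Sox4 (-4.03 to -2.96), Sox11 (-5.00 to -3.83) and Sox12 (-3.13 to -1.81). Sox2 was higher in adults in 5 of 5 sets (0.61 to 1.33), Sox9 in 5 of 5 (0.56 to 2.10) and Sox8 in 4 of 5 (-0.27 to 1.38). Sets held 1 or 2 libraries per age, so these values carry no test. The gap between the median change of the SoxC genes and that of the other members ran from -5.77 to -2.91 over the 5 sets. The lowest value, in set 4, was -4.27 without P1 female 4, where the change of Sox21 was 0.56 in place of 5.00 and that of Sox6 -0.14 in place of 2.95.

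By labelled sex, the SoxC genes fell and Sox9 rose in both. In labelled females 4 members changed from P1 to adult (23.4% of all genes did): Sox4 by -3.52 ± 0.33, Sox11 by -4.31 ± 0.46, Sox12 by -2.72 ± 0.30 and Sox9 by 1.20 ± 0.35 on the log2 scale. In labelled males 5 changed (26.8% of all genes), Sox4 by -3.49 ± 0.30, Sox11 by -4.46 ± 0.41, Sox12 by -2.44 ± 0.27, Sox9 by 1.59 ± 0.34 and Sox2 by 1.15 ± 0.30. Sox2 in labelled females had a log2 change of 0.79 ± 0.31 (adjusted p = 0.0602), and the female change minus the male change was -0.36 ± 0.43 (adjusted p = 1).

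Averaged over the ages, no member differed between labelled females and males (edgeR, 0 of 9, 0 at an unadjusted p under 0.05), where 0.0284% of genes, 6 in all, did. DESeq2 and limma voom called 0 members as well. The differences ran from -0.08 ± 0.12 for Sox4 to 0.17 ± 0.24 for Sox21. In the test of sex by age no member and no gene passed (edgeR, 1 member and 778 genes at an unadjusted p under 0.05; DESeq2 and limma voom, 0 members). Sox12 had its largest sex difference at P7, at 0.85 ± 0.27 higher in labelled females (adjusted p = 0.676). Without the 11 libraries whose Y-linked counts go against the label, 0 members differed.

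The genes most like each member were sought over the 53 libraries on log2 CPM with the set removed, among 11111 genes with a mean of at least 5 CPM, as the 3 with the highest Pearson r. For Sox4 these were Sox11 (r = 0.97), Bzw2 (0.97) and Mex3a (0.96), for Sox11 Mex3a, Sox4 and Ttc28 (0.97, 0.97 and 0.95), and for Sox12 Mex3a, Sox4 and Sox11 (0.97, 0.96 and 0.94). Sox4 and Sox11 were thus among each other's 3 nearest genes, while Sox12 was among those of neither, and these values moved little without the 2 libraries farthest from the median (0.93 or above). For Sox2 they were Lhx2 (0.89), Qk (0.88) and Sox9 (0.87), and for Sox9 Mid1ip1 (0.91), Gstm3 (0.89) and the pseudogene Gstm2-ps1 (0.89), whose reads may be shared with its relatives. For Sox8 they included Kcnip3 (0.83) and Zfp36l2 (0.81), and for Sox5 they were Irf2bpl, Ccdc88a and Stau1 (0.73, 0.72 and 0.72). Without the 2 libraries farthest from the median, the Sox2 values were 0.83, 0.80 and 0.85 and the Sox9 values 0.88, 0.88 and 0.88. Those for Sox8 were then 0.75 and 0.77, and those for Sox5 0.64, 0.66 and 0.65. The highest for Sox21 (Npepl1 0.97, Sall1 0.97, Trp53i13 0.96) and Sox6 (Cxxc1 0.95, Def8 0.94, Eif2b5 0.94) rest in part on P1 female 4: without it they were 0.87, 0.84 and 0.84 for Sox21 and 0.74, 0.69 and 0.68 for Sox6. All values share libraries, age course and depth, and are given as a description with no p.

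Of the other SOX genes 9 had counts, and 4 of them changed from P1 to adult, 2 in each direction, a share near that of all genes (41.3%). Sox3, a SoxB1 relative of Sox2, fell by 2.47 ± 0.45 on the log2 scale (26.2 ± 21.2 CPM (SD, n = 8) at P1, 4.23 ± 1.90 (SD, n = 9) in adults, adjusted p = 2.02e-05). Its direction was the opposite of that of Sox2, and Sox1, the remaining SoxB1 gene, rose by 0.47 ± 0.20 (48.3 ± 17.8 to 70.4 ± 28.2 CPM, adjusted p = 0.0484). Sox10, the SoxE gene of oligodendrocyte lineage cells, rose by 1.05 ± 0.27 (11.8 ± 5.46 to 27.2 ± 21.9 CPM, adjusted p = 0.0016). Sox18, a SoxF gene of endothelial cells, fell by 1.54 ± 0.36 (adjusted p = 5.16e-04). Sox17, Sox7, Sox13, Sox15 and Sox30 did not pass the test, with log2 changes of -1.15, 0.29, 0.30, 0.92 and -1.49, and the last 2 had medians below 1 CPM.

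Marker lists that could share an age course with the SoxC genes were read beside them. Of 24 immature neuron markers 21 fell and 2 rose from P1 to adult (median log2 change -2.63). The 3 with the smallest adjusted p were Dlx1 (-2.68 ± 0.19), a factor of interneuron precursors, Dpysl5 (-5.35 ± 0.41), a growth cone protein, and Dlx2 (-3.55 ± 0.28). By step, 4 of the markers fell and 0 rose from P1 to P4, and 0 fell and 1 rose from P4 to P7 (median log2 changes -0.97 and -0.45). From P7 to P14 13 fell and 2 rose, and from P14 to P35 3 fell and 0 rose (medians -0.99 and -0.54). Over all genes 0.199%, 0.417%, 1.65% and 0.81% were called lower at these steps in turn. With so small a share from P4 to P7, a count of 0 among 24 markers tells little about that step. The summed level of the list ran from 5569 to 26709 CPM at P1 and from 2616 to 6263 CPM in adults, and Nhlh1 was at 0 in most libraries. P14 male 6, the library with the highest SoxC levels of its age, also had the highest immature neuron sum of that age (18227 CPM, age median 3321), and the lowest mature astrocyte sum (2477 CPM). It had the highest sum of 22 cell cycle genes at P14 too (405 CPM, age median 149). P1 female 1, the library with the lowest Sox4 and Sox11 of its age, had the lowest immature neuron sum of that age (5569 CPM). P1 female 4 had both the highest sum (26709 CPM) and the highest Sox4 (1365 CPM), Sox11 (898 CPM) and Sox12 (337 CPM) of the P1 libraries. At P7 the extremes were not shared: the immature neuron sum was lowest in P7 female 10 (4266 CPM) and highest in P7 female 6 (19704 CPM). Sox4 and Sox11 were both lowest in P7 male 6, and highest in P7 female 4 and P7 female S2 in turn. The part of immature neuron RNA in the SoxC values was not tested.

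Mature neuron markers took the other course, with 18 of 20 higher in adults and 0 lower (median log2 change 2.18, Snap25 3.08 ± 0.26, Nefm 2.22 ± 0.17, Camk2a 4.00 ± 0.34), and a summed level of 736 to 3755 CPM at P1 and 3567 to 16084 CPM in adults. Interneuron markers split, with 3 of 16 higher and 5 lower (Lhx6 -2.40 ± 0.27, Pvalb 6.27 ± 0.77, Vip 4.08 ± 0.52), and deep layer projection neuron markers had 1 of 11 higher and 5 lower (Cplx3 2.81 ± 0.39, Bcl11b -1.52 ± 0.21, Ldb2 -1.57 ± 0.23). Mature astrocyte markers rose in 23 of 25 cases and fell in 0 (median log2 change 2.62). S100b, a calcium-binding protein, rose by 5.90 ± 0.47, Slc1a2, the main glutamate transporter, by 4.29 ± 0.34, and Gpr37l1, an astrocyte receptor, by 4.75 ± 0.39 on the log2 scale. The rises of Sox9 (1.39) and Sox2 (0.97) were smaller than this list's median.

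Radial glia and progenitor markers moved both ways, with 5 of 22 higher and 6 lower (median log2 change 0.04), near the shares of all genes (21.8% and 19.5%). Nes, an intermediate filament of progenitors, fell by 4.40 ± 0.37 and Fabp7, a fatty acid carrier of radial glia, by 4.09 ± 0.47, while Hopx rose by 2.27 ± 0.30. Of 21 known partners and targets of SOX factors in glia, 6 rose and 8 fell (median -0.11 beside 0.06 for all genes), among them S100b and Nes above and Nfib, a gliogenic factor, which fell by 1.30 ± 0.13 (532 ± 118 to 214 ± 29.0 CPM).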

How the data were processed

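One table of gene counts deposited by the authors was used. The submitters' processing notes name CASAVA, HISAT2, SAMtools and featureCounts with the mouse build GRCm38.p5, and the sources used here give neither annotation nor strand setting. It has 1 column for each of 53 animals, 4 P7 animals among them having been sequenced in 2 runs. Nothing ties columns to pooled animals, and p-values measure the spread between these libraries. All 21118 genes were tested with edgeR 4.0.16 (R 4.3.3) by a quasi-likelihood fit with trimmed mean normalization, 12 groups of age and labelled sex, and the replicate set as a block. P-values were adjusted by Benjamini-Hochberg over all genes, with a threshold of 0.05. The SE is the log2 change divided by the square root of F. CPM are counts per 1000000 on scaled library sizes, divided for levels per kb by the merged exon length in the GENCODE M21 annotation of GRCm38. Correlations used log2 CPM with a prior count of 2. In data simulated for P1 to adult over 21118 genes, 10% of 2-fold and 89% of 4-fold changes were recovered. The simulation gave every gene the same fixed spread and changed only a small share of the genes. Both settings differ from these data, so the shares are not the power of the tests above. DESeq2 1.42.0, limma 3.58.1 (voom), other size factors, a filter on low counts, other model terms and omitted libraries were the alternatives.

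All 9 members are followed in every comparison, those that did not pass a test in part by a count or range, with every measured gene of the wider SOX family. Of each other list up to 3 genes are named, by the smallest adjusted p from P1 to adult. For each member the 3 genes most like it are named, apart from 1 that is not reported here. The members and lists were chosen with earlier results of these data known. The alternatives without the 11 libraries whose Y-linked counts go against the label, and without P1 female 1, P1 female 4 and P14 male 6, were chosen after seeing the data.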

Additional observations from a re-analysis of the deposited data

Results flagged for a closer look

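Of 90 tests of a member within a group of 4 or more libraries, 4 found 1 library far from the rest of its group. Chance gives about 1 in 20, so about as many would come by chance. Sox11 was at 134.5 CPM in P14 male 6, where the other P14 males had 20.1 to 24.0 CPM. P14 female 6 was low in both Sox21 (46.1 CPM, the others 152 to 202) and Sox8 (68.5 CPM, the others 122 to 140.1). It was the set 6 library of that group, and set 6 at P14 reached only 66.6 CPM for Sox21 and 72.7 CPM for Sox8. Sox6 was at 0.633 CPM in P1 female 4, where the other P1 females had 29.6 to 60.5 CPM.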

How the results depend on the processing

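No member that passed the test changed direction under any alternative. Values of members that did not pass it had the other sign in 136 cases, at most 0.27 on the log2 scale and none of them called. Of 684 values of single members under the other settings, 15 lost and 11 gained their call, and of 1431 with 1 library left out, 17 lost and 7 gained it. With no replicate block, 0 members changed at the step to P4, 1 at that to P7, 2 at that to P14 and 3 from P1 to adult in labelled males, and 5725 genes changed from P1 to adult in place of 8718. Libraries of 1 set in other groups deviated together (median r of 0.577 over 223 pairs and 12076 genes, against -0.15 over 1055 pairs from other sets). Of the same-set pairs 95.1% had r over 0.1, against 31.4% of the pairs from other sets. What the libraries of a set share is not given in the labels, so the set is not read as a pairing of animals. The step from P7 to P14, with 1 member called, depended most on the settings. It had 3 members with sex left out of the model, 2 with DESeq2 size factors, with DESeq2, with limma voom or without the 3 libraries with the fewest genes detected, 3 without P1 female 1, P1 female 4 and P14 male 6, and 0 without the 5 libraries with the other sex's letter or without the 11 whose Y-linked counts go against the label. Without those 11, 0 members changed from P4 to P7. Without the 3 libraries with the fewest genes, 1 member (Sox4) changed from P14 to P35. The cause was not tested.

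With 1 library left out, the members called ranged from 5 to 6 for P1 to adult, 2 to 2 at the step to P4, 1 to 3 at that to P7, 0 to 4 at that to P14, 0 to 0 for P14 to P35 and for P35 to adult, 5 to 6 over the 6 ages, 3 to 6 in labelled females, 5 to 6 in labelled males and 0 to 0 between the sexes. Genes changed from P1 to adult ranged from 8000 to 9064, and the gap of the SoxC median to that of the other members from -4.37 to -3.62 (-4.02 with all libraries). The extremes at P4 to P7 and P7 to P14 came from P7 male 6 (1 and 4 members) and P7 male 2 (0 at P7 to P14), with 3 at P7 to P14 without P14 male 6. Leaving out single libraries was not run for the test of sex by age or between sets. The median change of all genes moved by -0.07 to 0.09 over the alternatives.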

Other observations

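Other lists of cell type and cell state markers also changed from P1 to adult, beside 21.8% of all genes higher and 19.5% lower. All 22 measured cell cycle genes fell (median log2 change -4.13), among them Ube2c (-5.05 ± 0.49), Ccna2 (-5.11 ± 0.52) and Cdk1, the mitotic kinase (-5.78 ± 0.59). Their summed level ran from 354 to 1123 CPM at P1 and from 83.5 to 152 CPM in adults. All 17 oligodendrocyte and myelin genes rose (median 3.43), with Mbp, a myelin protein, at 3.40 ± 0.40, Mobp at 6.91 ± 0.92 and Gjc3 at 4.47 ± 0.61. Of 16 markers of oligodendrocyte lineage progenitors 8 rose and 2 fell (median 0.99), with Cspg5 at 1.32 ± 0.18, Neu4 at 3.50 ± 0.66 and Olig2, a factor of that lineage, at -1.13 ± 0.27.

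Of 14 microglia markers 5 rose and 0 fell (median log2 change 1.13), among them Tmem119 (2.76 ± 0.59), P2ry12 (2.10 ± 0.52) and Trem2 (1.67 ± 0.60). Of 14 endothelial and mural markers 2 rose and 2 fell (median -0.27), with Cldn5, a tight junction protein, at -1.23 ± 0.32, Slco1a4, a transporter, at 3.21 ± 0.93 and Rgs5 at -0.66 ± 0.23.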
